A study of Drosophila melanogaster with 16 samples.

Results

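Larvae of the clockwork orange (cwo) allele cwoB9 were compared with control larvae, both fed on low-sugar food. The comparison took 8 of the 16 libraries of the series by their labelled genotype and diet, 4 of mutant and 4 of control larvae, and tested 9837 genes of the 9863 in the deposited table. The title of the series names the role of Clockwork orange in sugar-responsive transcription, and the low-sugar pair gives the difference between the genotypes on food with no sugar added. Each library is RNA of whole Drosophila melanogaster larvae. All larvae, of either genotype, had fed as first instars on low-sugar food (10% yeast) at 25 °C for 24 h. As early second instars they were moved to fresh plates with 2% blue dye for 8 h, and only feeding larvae were frozen. The mutant and control groups described here stayed on 10% yeast, while the other 8 libraries come from mutant and control larvae moved to food with 15% sucrose added. The labels give the mutant only as the allele cwoB9 and the control only as control: the lesion, the strain of the control, the eye-colour genotype and the number of larvae per library are not stated. They do not say how the replicates arose either, so the p-values measure the spread between these libraries, which may be technical.

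Clockwork orange is a basic helix-loop-helix Orange protein that represses transcription at E boxes, the DNA sites through which the Clock and Cycle proteins activate the genes of the circadian clock. It thereby lowers the transcription of clock genes such as timeless, and of its own gene, during part of the daily cycle. In the larva, feeding tissues such as the gut, fat body and Malpighian tubules hold most of the enzymes that digest, store and burn nutrients.

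By a number computed from the smallest step of the deposited values, the 4 mutant libraries held 46.7 to 54.2 M reads (M for 1000000) in the genes of the table. The 4 control libraries held 44.9 to 52.4 M reads by the same computation. Fat body and muscle markers had high summed levels in all 8 libraries: 4 fat body genes summed to 5978 to 8085 CPM (the name that the deposited table gives its values, which are scaled to the size of each library) in mutant and 6491 to 7883 CPM in control libraries. The 4 genes were uneven in level, with a mean log2(CPM + 0.5) of 5.73 in mutant and 5.88 in control libraries. Genes that mark the moult were not level among the 8 libraries. The mean log2(CPM + 0.5) of 15 Tweedle genes, which encode proteins of cuticle laid down around moults, was 3.12, 3.27, 4.78 and 5.96 in the mutant libraries, in the order of their replicate numbers, and 5.26, 3.43, 3.30 and 3.27 in the control libraries. Mutant replicates 3 and 4 and control replicate 1 thus stood above the other 5. The difference in the score between the genotypes, 0.465, did not pass an exact permutation test (two-sided, p = 0.714, adjusted over 15 scores 0.824), which cannot go below 0.0286 with 4 libraries against 4. Counts over a list that move by more than 1.5 times when these 3 libraries are set aside are given both ways. The male RNA roX1 was 112, 244, 242 and 275 CPM in mutant libraries and 163, 192, 193 and 141 CPM in control libraries, so that the lowest and the highest values were both in the mutant group. Its partner roX2 averaged 5.72 ± 1.74 CPM in mutant and 4.25 ± 0.793 CPM in control libraries (SD, n = 4 each), and neither was called by the test used for all genes.

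The gene cwo itself had 139, 194, 192 and 199 CPM in mutant libraries, against 56.9, 57.8, 54.9 and 58.3 CPM in control libraries. The groups did not overlap, and cwo RNA was higher in the mutant by 1.64 ± 0.09 log2 units (SE, limma, Benjamini-Hochberg adjusted p = 1.07e-09). A value per gene does not show which part of the transcript was read, so it checks nothing about the allele. The gene white (w), which encodes a transporter of eye pigment precursors, had the largest difference of all genes on the scale of log2(CPM + 0.5). It had 316, 357, 373 and 344 CPM in mutant libraries and 0.201, 0.431, 0.262 and 0.368 CPM in control libraries, a difference of 8.74 ± 0.16 log2 units (limma adjusted p = 4.00e-15). The 2 genotypes therefore differed in w RNA as well as in the labelled allele, and for any other gene the part of the allele and the part of the remaining genetic background cannot be told apart.

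Differences were tested on log2(CPM + 0.5), with all 16 libraries sharing 1 estimate of the spread, and a gene is called higher or lower in the mutant when its adjusted p is under 0.05. This held for 4313 of the 9837 genes (43.8%), of which 2268 (23.1%) were higher and 2045 (20.8%) lower in the mutant. Many of these differences were small: the median size among called genes was 0.35 log2 units. Several gene lists described below had a smaller share of called genes than all genes. They include clock kinases and degradation factors (30.8% called), ecdysone (36.8%), heat shock (40.0%) and the immune deficiency pathway (42.9%). Smaller too were ribosome biogenesis (19.0%), the cytosolic (22.5%) and mitochondrial (23.6%) ribosome, antimicrobial peptides (16.7%), Tweedle genes (13.3%) and Osiris genes (0%). The smaller shares of the insulin, purine and respiratory chain lists are given with those lists. At least 2-fold on this scale was reached by 557 genes (5.66%), 358 of them higher (3.64%) and 199 lower (2.02%). After quantile normalization the split was 1911 higher and 2510 lower, so the balance of the small differences depends on how the libraries are scaled. In whole larvae, fewer cells of a type and less RNA per cell cannot be told apart, and this holds for every result below.

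The clock genes rose where they changed at all. timeless (tim), which encodes a subunit of the repressor complex of the clock, had 11.5, 11.9, 11.5 and 11.2 CPM in mutant libraries and 1.73, 1.12, 1.10 and 1.34 CPM in control libraries. The groups stood far apart and the 4 mutant libraries were nearly equal, with a difference of 2.73 ± 0.10 log2 units (limma adjusted p = 1.02e-11). Pdp1, which encodes an activator of Clk in the second clock loop, had 238, 253, 221 and 219.7 CPM in mutant and 148, 155.8, 155 and 163 CPM in control libraries, a difference of 0.58 ± 0.05 (limma adjusted p = 6.23e-07). With cwo, these were the 3 of 5 tested clock genes that were called. vri, the repressor of the same loop, had 1.22, 1.77, 1.94 and 2.18 CPM in mutant libraries, against 2.99, 0.863, 3.16 and 0.735 CPM in control libraries. Control replicates 1 and 3 thus lay above all of the mutant libraries and control replicates 2 and 4 below them, a split shared with CG14422 below. With this spread vri was not called (0.06 ± 0.29, limma adjusted p = 0.889). Neither was cyc, at 1.66 ± 0.306 CPM in mutant and 1.75 ± 0.228 CPM in control libraries (SD, n = 4 each). Of 13 genes of clock kinases, phosphatases and degradation factors, none was called higher and 4 lower (the largest difference -0.19), or 2 lower once the 3 libraries of high Tweedle score were set aside. The DNA repair photolyase phr6-4, a relative of the cryptochromes, was among the largest rises of all genes: 13.6, 13.7, 12.1 and 13.4 CPM in mutant libraries and 0.703, 0.992, 0.636 and 0.552 CPM in control libraries (3.50 ± 0.11, limma adjusted p = 1.41e-12).

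**Figure D1:**
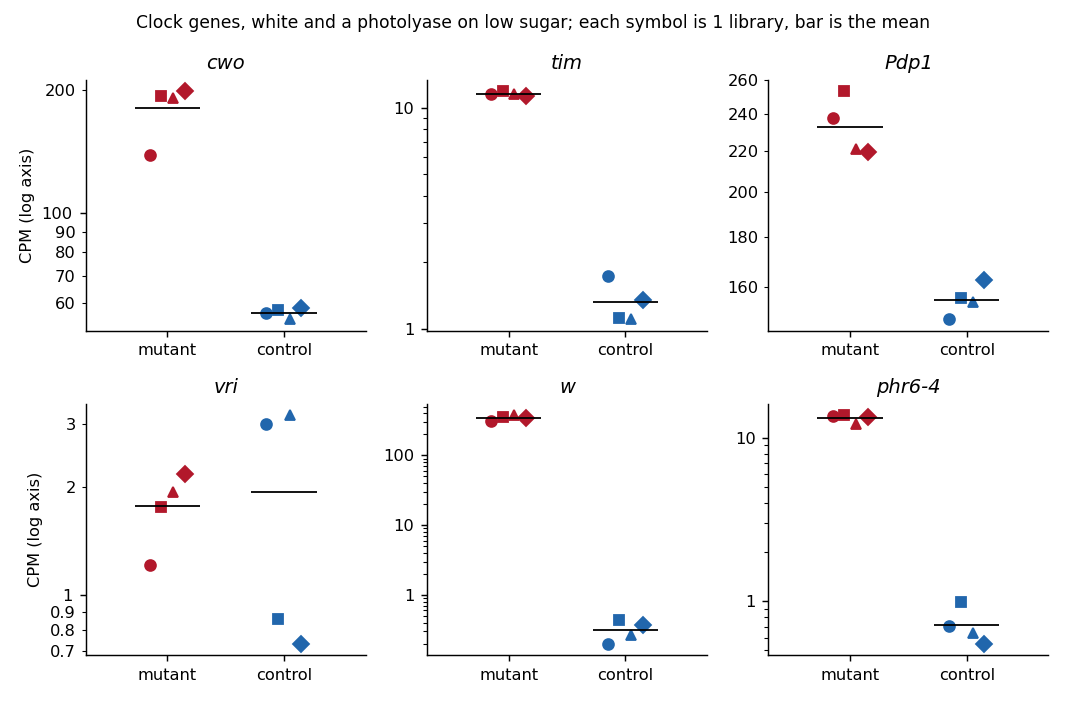
Levels of 6 genes in CPM on log axes, with the mutant libraries on the left, the control libraries on the right, 1 symbol shape per replicate number and the mean as a bar. The groups stand apart for cwo, tim, Pdp1, w and phr6-4 and overlap for vri, whose control libraries lie between 0.735 and 3.16 CPM.

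The series studies the response to sugar, so the genes of the sugar-sensing factor Mondo-Mlx were read on the low-sugar food as well. Of 6 tested genes of this list 3 were called higher, 1 lower and 2 not called, and not all of them are named here. sugarbabe (sug), a zinc finger target of Mondo, had 15.8, 32.3, 20.3 and 16.8 CPM in mutant libraries and 15.9, 8.93, 13.3 and 10.6 CPM in control libraries. It was called higher (0.75 ± 0.19, limma adjusted p = 0.00485), although mutant replicate 1 lay just below control replicate 1. Mondo itself, at 167 ± 18.3 CPM in mutant and 139 ± 9.51 CPM in control libraries (SD, n = 4 each), differed by 0.26 ± 0.07 (limma adjusted p = 0.00735), a call lost without the 3 libraries of high Tweedle score. cabut (cbt), another zinc finger target of Mondo, was not called, at 45.1, 50.8, 50.2 and 51.7 CPM in mutant and 53.0, 44.2, 51.7 and 49.97 CPM in control libraries. tobi, an alpha-glucosidase gene known as a target of insulin and glucagon-like signalling, went the other way. It had 0.217, 0.0939, 0.287 and 0.287 CPM in mutant libraries and 14.01, 17.4, 14.1 and 12.8 CPM in control libraries (-4.39 ± 0.13, limma adjusted p = 6.98e-13).

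The largest rises, by the size of the log2 difference among genes of at least 5 CPM whose groups did not overlap, came after w from phu, nol, CG32751, FucTC, CG18417, CG32074, CG11425, CG5892, CG10474, CG13041, CG8745, CG13060, phr6-4 and CG14120. phu, for which RefSeq lists the synonym Alp3, had 392, 411, 405 and 476 CPM in mutant libraries and 30.0, 3.37, 3.11 and 6.18 CPM in control libraries. The groups stood far apart, with control replicate 1 the highest of the controls (5.85 ± 0.50, limma adjusted p = 2.17e-07). nol had 388, 411, 519.7 and 479 CPM in mutant and 21.4, 18.6, 18.7 and 9.71 CPM in control libraries (4.72 ± 0.30). FucTC, a fucosyltransferase gene, had 36.6, 29.3, 27.9 and 28.2 CPM in mutant libraries, against 1.39, 1.06, 0.954 and 1.20 CPM in control libraries (4.23 ± 0.12). CG10474 reached the highest mean level of the 15, with 627, 709.7, 609 and 702 CPM in mutant libraries and 68.1, 50.2, 54.2 and 52.8 CPM in control libraries (3.55 ± 0.20).

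Some of the largest rises moved with the Tweedle score. CG13041 had 17.4, 16.6, 73.0 and 50.6 CPM in mutant libraries and 4.22, 2.46, 1.40 and 1.82 CPM in control libraries (3.55 ± 0.70, limma adjusted p = 0.000754). Its neighbour CG13060 had 9.20, 8.45, 37.5 and 30.0 CPM in mutant libraries, against 1.95, 1.29, 0.767 and 0.552 CPM in control libraries. CG32074 had 7.71, 9.15, 18.9 and 63.2 CPM in mutant and 2.93, 0.151, 0.281 and 0.129 CPM in control libraries. In each of the 3 genes mutant replicates 3 and 4 and control replicate 1, the libraries of high Tweedle score, were the highest of their group. The lack of overlap between the groups is part of the rule that chose these genes. The part of stage in these differences was not tested.

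The largest falls reached genes that were all but silent in the mutant. CG10514, which belongs to the family of ecdysteroid kinase-like genes, had 0.0434, 0, 0.0179 and 0.0574 CPM in mutant libraries, against 129, 147, 138 and 125 CPM in control libraries (-7.99 ± 0.16, limma adjusted p = 1.30e-14). CG11892 of the same family had 0.0434, 0.0939, 0 and 0.0957 CPM in mutant and 65.5, 68.9, 68.3 and 67.9 CPM in control libraries (-6.93 ± 0.19). At such levels the log2 difference depends on the 0.5 added before the logarithm and understates the change. The same holds for LysD (-7.20 ± 0.12), CG15741 (-6.23 ± 0.23), CG34278 (-5.76 ± 0.15), ng3 (-5.61 ± 0.23), ng2 (-5.28 ± 0.14), CG12522 (-5.23 ± 0.30), LysC (-4.85 ± 0.12), CG32581, now called sordd2 (-4.59 ± 0.10), and CG32071 (-4.47 ± 0.28). CG14422 fell as far (-7.38 ± 0.49), with control libraries that differed among themselves: it had 4.95, 0.357, 1.47 and 0.613 CPM in mutant libraries and 549.8, 176, 455 and 178 CPM in control libraries. Control replicates 1 and 3 were the high ones, and the same 2 libraries were the high ones for CG14424 (-5.001 ± 0.54) in the same stretch of the X chromosome. They were the high control libraries for vri and ImpE3 as well, and the cause of this split was not tested. The remaining members of the 15 largest falls were the cytochrome P450 genes Cyp4p2 and Cyp28d2.

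**Figure D2:**
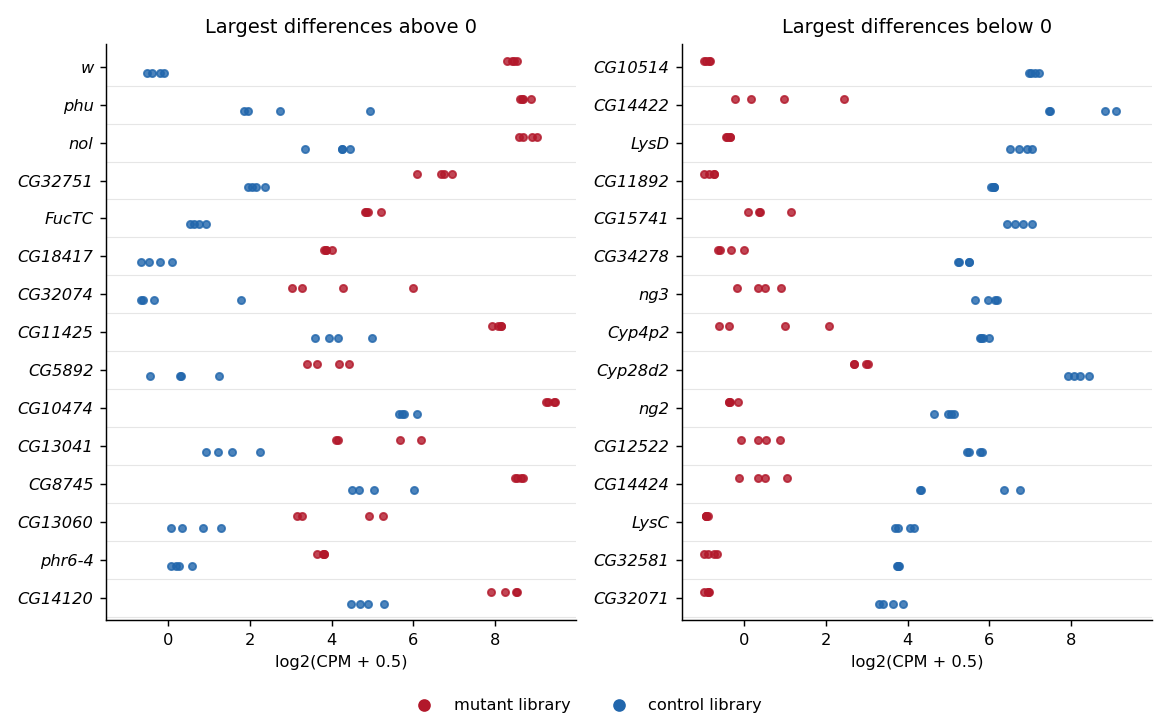
The 15 largest differences in each direction, as log2(CPM + 0.5) with 1 point per library and the mutant libraries above the control libraries of each gene. No group overlaps, by the rule that chose the genes, and CG13041, CG13060, CG32074, CG14422 and CG14424 spread widely within a group.

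Many of these genes lie beside each other. Of the 30 genes, 14 lie within 50 kb of another of them in the BDGP6 annotation, 4 of the higher and 10 of the lower ones. On the X chromosome, 9 tested genes stand in the stretch around CG14422, of which 7 were lower and 1 higher. CG32793 (-4.07), CG3598 (-4.24), CG14420 (-3.79) and CG14423 (-2.45) fell with CG14422 and CG14424, while CG3588 was higher in the mutant (0.76). The new glue genes have 2 tested neighbours, of which CG14265 fell by 2.17. A cluster on chromosome arm 3R held 41 tested genes with the ecdysteroid kinase-like family, 18 of them lower and 8 higher. In it CG13658 fell by 3.48 and CG31097 by 2.28, and CG11893 was higher by 2.36 on the log2 scale. On arm 3L, 18 tested genes around nol included 6 higher and 6 lower ones, among them NaPi-III (2.15), whose annotated span overlaps nol and CG32074, so that the reads of these genes may not be separable. The stretch of 35 tested genes around CG13041 held 19 higher genes and 1 lower gene. Of all genes tested 43.8% were called, 23.1% higher and 20.8% lower. These stretches were chosen around genes with large differences, which the counts include, and their counts are a description.

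The salivary gland markers fell. The 3 new glue genes, which the salivary glands of feeding larvae express, were all but absent in the mutant: ng1 had 0.846, 0.714, 0.951 and 0.517 CPM in mutant libraries and 17.3, 22.0, 23.3 and 22.2 CPM in control libraries (-4.11 ± 0.17, limma adjusted p = 5.74e-11). ng3 had 0.912, 0.751, 1.35 and 0.383 CPM in mutant libraries, against 49.9, 61.8, 70.03 and 72.4 CPM in control libraries. ng1 and ng2 are near-identical copies, so the share of each is uncertain. Other markers of the gland were closer to their control level. sage, a transcription factor of the gland, had 2.24 CPM in mutant and 3.56 CPM in control libraries on average (-0.57), and CrebA, which drives secretion, fell by 0.30, while fkh, another of its transcription factors, was higher by 0.22, a call not made in 6 of the 8 fits without 1 library or without the 3 of high Tweedle score. The summed level of the 6 salivary markers was 81.5 to 94.3 CPM in mutant libraries and 182 to 232 CPM in control libraries. Whether the glands were smaller or expressed less cannot be told from whole larvae.

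Lysozymes, which in the fly gut digest bacteria, fell beside them. LysD had 0.239, 0.282, 0.233 and 0.287 CPM in mutant libraries and 131, 120.3, 90.6 and 106 CPM in control libraries (limma adjusted p = 3.43e-15). LysB had 9.12, 9.64, 11.5 and 9.67 CPM in mutant and 57.4, 59.6, 27.5 and 47.7 CPM in control libraries (-2.16 ± 0.20), and LysE fell by 1.44. Together 4 of the 5 tested lysozymes were lower. LysS, the most abundant of them, was not called, at 299.6 ± 37.7 CPM in mutant and 344 ± 21.6 CPM in control libraries (SD, n = 4 each). LysB, LysC, LysD and LysE are near-identical neighbours on arm 3L, and reads may be shared among them.

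Other listed families of gut enzymes had more genes called higher than lower in the mutant. Alkaline phosphatases, enzymes of gut and tubule membranes that release phosphate, were higher in 10 of 11 tested genes, with a median difference of 1.04 log2 units beside a median of 0.000286 over all genes. CG10592 (Alp10) had 1089.9, 961, 749 and 746 CPM in mutant libraries and 165, 129, 133 and 146 CPM in control libraries (2.61 ± 0.12, limma adjusted p = 1.42e-10). CG5150 (Alp9) had 1043, 878, 678 and 578 CPM in mutant libraries, against 124, 113, 107 and 125 CPM in control libraries (2.72 ± 0.16). The groups stood apart in all 11 genes, as in 37.3% of all genes tested, and in both of these the first 2 mutant libraries, of low Tweedle score, were the higher ones. CG3264 (Alp8) rose by 2.17 ± 0.10, Alp2 by 2.74 ± 0.14, CG3292 (Alp7) by 1.04 ± 0.11 and Alp4, known from the tubules and the brain, by 1.18 ± 0.06. Alp1 was lower (-0.44 ± 0.14), a call lost without control replicate 4, mutant replicate 2, mutant replicate 3 or the 3 libraries of high Tweedle score. Summed over the 11 genes, mutant libraries held 3269 to 4109.9 CPM and control libraries 984 to 1097 CPM.

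Digestive proteases shared this direction, less uniformly. Trypsins were higher in 7 of 11 genes and Jonah proteases, a family of chymotrypsin-like gut enzymes, in 8 of 16. betaTry had 1009.6, 919.9, 1023 and 885 CPM in mutant libraries and 237, 197, 205 and 189 CPM in control libraries (2.21 ± 0.11, limma adjusted p = 6.50e-10). epsilonTry had 726, 672, 808 and 755 CPM in mutant and 198, 161, 186 and 175 CPM in control libraries (2.04 ± 0.10). Jon44E had 629, 519.6, 578 and 514 CPM in mutant libraries, against 147, 125, 134 and 135 CPM in control libraries (2.04 ± 0.09). In all 3 genes every mutant library exceeded every control library. alphaTry rose by 1.47 ± 0.13 and Jon66Ci by 1.45 ± 0.13. Of the Jonah genes 3 were lower, against 1 without the 3 libraries of high Tweedle score. zetaTry was the 1 lower trypsin (-0.33), and this call was lost in 6 of the 8 fits that left out 1 library. With the 3 libraries of high Tweedle score set aside, 9 trypsins were higher and none lower. Members of both families are close copies, so the split of reads among neighbours such as alphaTry and betaTry is uncertain.

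Enzymes that split starch and sugar rose in 7 of 14 genes and fell in 1, tobi (2 fell without mutant replicate 4). Mal-A1, a maltase gene, had 437, 413, 431 and 366 CPM in mutant libraries and 170.4, 163, 138 and 140.5 CPM in control libraries (1.43 ± 0.12, limma adjusted p = 2.02e-07). Amy-d, an amylase gene, had 116, 104, 118 and 121 CPM in mutant libraries, against 39.1, 42.8, 40.5 and 33.6 CPM in control libraries (1.55 ± 0.10). Its near-identical copy Amy-p was not called (0.16, 135 CPM in mutant and 121 CPM in control libraries on average). Of the lysosomal alpha-mannosidase genes, 4 of 6 rose, led by LManV at 0.84.

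The markers of enterocytes and copper cells were higher in the mutant where they were called with all libraries. Of 9 enterocyte markers 5 were higher and none lower, but 4 of those 5 are the digestive enzyme genes alphaTry, betaTry, thetaTry and Jon65Ai, and the fifth is Myo31DF, a myosin of the brush border, at 0.26. The transcription factors of these cells were not called, although GATAe was called lower without control replicate 4 or mutant replicate 1. GATAe had 32.9 CPM in mutant and 37.4 CPM in control libraries, nub 9.01 and 9.57 CPM, and pdm2 3.21 and 3.56 CPM on average, in the same order. Summed over the 9 genes, mutant libraries held 1419 to 1640.2 CPM and control libraries 582 to 659 CPM. The sum includes the digestive enzyme genes, with betaTry alone at 959 CPM in mutant and 207 CPM in control libraries on average. It is therefore not separate from the rise of the enzymes. Of the 4 markers of copper cells, the acid-secreting cells of the midgut, 3 rose. labial (lab), which specifies them, had 10.8, 9.15, 9.70 and 10.97 CPM in mutant libraries and 7.40, 7.55, 7.19 and 7.26 CPM in control libraries (0.44 ± 0.06, limma adjusted p = 2.58e-05). The carbonic anhydrase gene CAH2 had 175, 212, 228 and 216 CPM in mutant libraries, against 82.4, 55.9, 62.5 and 76.3 CPM in control libraries (1.59 ± 0.11), and the proton pump subunit gene Vha100-4 rose by 0.55 ± 0.07. Of all 23 genes of the vacuolar proton pump, 14 were higher and 1 lower, with a median difference of 0.13. The balance was 9 higher and 2 lower after quantile normalization. The part of a larger share of gut RNA in the rise of the enzymes was not tested.

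**Figure D3:**
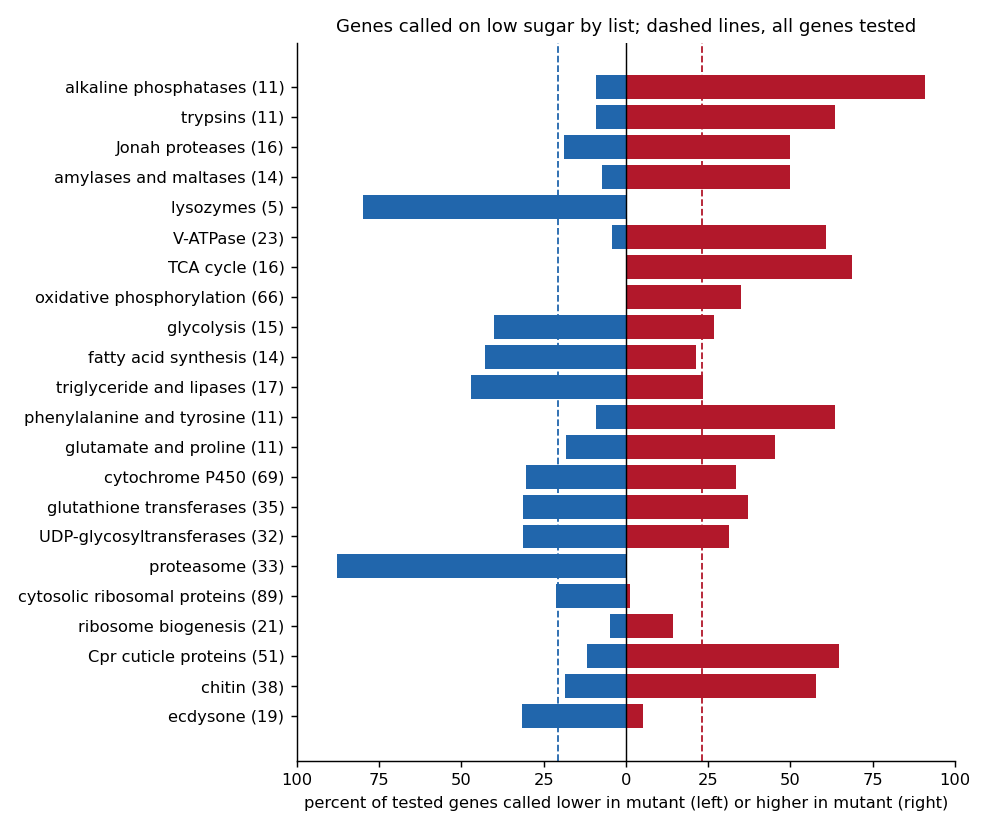
Share of the tested genes of 22 lists that were called lower (bars to the left) or higher (bars to the right) in the mutant, with the number tested in brackets and the shares over all genes, 20.8% and 23.1%, as dashed lines. Alkaline phosphatases (10 of 11 higher) and the proteasome (29 of 33 lower) reach farthest past the lines of all genes.

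In sugar metabolism the 2 ends of the glycerophosphate shuttle, which carries electrons into mitochondria, parted. Gpo-1, the mitochondrial glycerol-3-phosphate dehydrogenase gene, had 1174, 1329, 1094 and 1139 CPM in mutant libraries and 363, 347, 376 and 361 CPM in control libraries (1.71 ± 0.05, limma adjusted p = 5.69e-13). Its cytosolic partner Gpdh fell by 0.22, a call lost without the 3 libraries of high Tweedle score. Hexokinase A (Hex-A), which traps glucose in the cell, had 261, 310.1, 297 and 288 CPM in mutant libraries, against 177, 169, 175 and 176 CPM in control libraries (0.72 ± 0.05). Neither pair of groups overlapped. Of the 15 glycolysis genes 4 rose, led by these, and 6 fell. Aldolase (Ald) led the falls, with 1799.8 ± 83.4 CPM in mutant and 2335 ± 27.7 CPM in control libraries (SD, n = 4 each, -0.38 ± 0.04). Without the 3 libraries of high Tweedle score 2 rose and 3 fell.

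Genes of trehalose, the blood sugar of insects, and of glycogen rose in 7 of 12 and fell in 2. Tps1, the trehalose synthase gene, had 236, 269, 267 and 288 CPM in mutant libraries and 183, 171, 198 and 194 CPM in control libraries (0.50 ± 0.07). The trehalose transporter gene Tret1-1 rose by 0.65 ± 0.09 and Treh, which splits trehalose, by 0.26, while glycogen synthase (GlyS) fell by 0.22. Without control replicate 3, 1 gene of this list fell, and 5 rose with the 3 libraries of high Tweedle score set aside. fbp and PCB, for fructose bisphosphatase and pyruvate carboxylase, made up the 2 of 3 gluconeogenesis genes that rose, by 0.61 and 0.37. Of 16 genes of the TCA cycle 11 rose and none fell. Nc73EF, the 2-oxoglutarate dehydrogenase gene, led the rises and had 602, 658, 658 and 679.8 CPM in mutant libraries, against 451, 461, 456 and 444 CPM in control libraries (0.52 ± 0.04), followed by SdhC at 0.25. Respiratory chain and ATP synthase genes rose in 23 of 66 (34.8% called, under the 43.8% of all genes) and fell in none, with a median of 0.08. These small shifts depend on scaling and on libraries: after quantile normalization 5 TCA cycle genes rose and 2 fell, and 11 respiratory genes rose and 7 fell. Once the 3 libraries of high Tweedle score were set aside, 9 TCA cycle and 34 respiratory genes rose and none fell. The 7 genes of the pentose phosphate pathway gave no stable count, with 1 rise and 3 falls in all libraries and 2 rises and no fall without the 3 of high Tweedle score.

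Lipid genes changed in both directions. Of 14 fatty acid synthesis genes 3 rose and 6 fell. FASN1, the fatty acid synthase gene, had 1944, 3510.5, 2019 and 2502 CPM in mutant libraries and 1462, 1485, 1534 and 1595 CPM in control libraries (0.67 ± 0.13, limma adjusted p = 0.000787). Mutant replicate 2 was the highest, and every mutant library exceeded every control library. AcCoAS, which makes acetyl-CoA from acetate, rose by 0.71 ± 0.12. ATPCL, which makes it from citrate, went down: it had 341, 413, 369 and 478 CPM in mutant libraries and 672, 791, 793 and 722 CPM in control libraries (-0.90 ± 0.09, limma adjusted p = 1.12e-06). SCAP and SREBP, whose proteins act together to activate lipogenic genes, fell as well. SCAP had 28.4, 37.1, 36.4 and 37.7 CPM in mutant libraries, against 67.3, 75.6, 77.2 and 80.2 CPM in control libraries (-1.10 ± 0.10), and SREBP fell by 0.40 ± 0.03.

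Of 17 genes of triglyceride storage and lipases 8 fell and 4 rose. The falls included CG1942, the Dgat2 gene of the last step of triglyceride synthesis, at 7.98 ± 1.01 CPM in mutant and 17.7 ± 2.27 CPM in control libraries (SD, n = 4 each, -1.10 ± 0.10), and both perilipin genes, Lsd-2 (-0.44) and Lsd-1 (-0.31), which coat lipid droplets. All 4 rises were in genes of the lipase family, CG31089 (2.28 ± 0.21), CG6271 (2.09), CG6277 (1.33) and CG6283 (0.82). The storage lipase brummer (bmm) was not called, at 16.1 CPM in mutant and 16.2 CPM in control libraries on average. Fatty acid oxidation genes rose in 3 and fell in 6 of 18 (50% called, close to the 43.8% of all genes). Without control replicate 1 the falls were 3, and without control replicate 4 or mutant replicate 4 the rises were 1. Acox57D-d, a peroxisomal acyl-CoA oxidase gene, led with -0.94. Among 9 lipoprotein and carrier genes 2 rose, led by the lipocalin NLaz (0.94), and 4 fell, among them the lipid transfer gene Mtp (-0.60); 1 rose with the 3 libraries of high Tweedle score set aside. The list of 16 genes of insulin and adipokinetic hormone signalling had 37.5% called, under the 43.8% of all genes: 4 were lower, led by the nutrient peptide gene CCHa2 (-0.53) and the adipokinetic hormone receptor gene AkhR (-0.52), and 2 were higher. Without control replicate 3, 2 were lower and 1 higher, and 1 was higher without control replicate 2 or mutant replicate 3 or 4. InR, foxo and Thor were not called.

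In 3 lists of amino acid metabolism more genes rose than fell. Gdh, the glutamate dehydrogenase gene, had 3055, 2664, 2446 and 2646 CPM in mutant libraries and 1528, 1638, 1487 and 1499.6 CPM in control libraries (0.81 ± 0.06, limma adjusted p = 1.64e-08). The proline breakdown gene P5CDh1 rose as much (0.81 ± 0.06), and in all 5 of 11 glutamate and proline genes rose and 2 fell. Of these the fall of Gs2 (-0.20) was lost in 6 of the 8 fits that left out 1 library, and 1 fell once the 3 libraries of high Tweedle score were set aside. Gnmt, which methylates glycine and thereby uses up S-adenosylmethionine, had 276, 272, 341 and 267 CPM in mutant libraries, against 158, 90.3, 111 and 83.9 CPM in control libraries (1.42 ± 0.19). In the whole list of 15 serine, glycine and one-carbon genes 7 rose and 2 fell, the glycine decarboxylase gene CG3999 (-0.61) and CG3011 (-0.39), which encodes serine hydroxymethyltransferase. Tyrosine breakdown rose at tyrosine aminotransferase, CG1461 (0.68 ± 0.09), and at hgo, homogentisate dioxygenase, with 37.7, 40.7, 42.3 and 46.5 CPM in mutant and 22.8, 21.1, 18.4 and 19.4 CPM in control libraries (1.02 ± 0.11). Of 11 phenylalanine and tyrosine genes 7 rose and 1 fell, a fall called in 2 of the 8 fits that left out 1 library; without the 3 libraries of high Tweedle score 3 rose and 2 fell. Of 12 purine genes 41.7% were called, close to the 43.8% of all genes: 3 rose, led by ade5 (0.51), and 2 fell, among them ry, the xanthine dehydrogenase gene (-0.33). Without mutant replicate 3, 5 purine genes rose, and 1 fell without that library, mutant replicate 4, control replicate 2 or the 3 libraries of high Tweedle score.

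The kynurenine branch of tryptophan breakdown, which makes brown eye pigment, rose at 3 steps: v by 0.32 (not called without mutant replicate 3), KFase by 0.82 ± 0.12 and cn by 1.19 ± 0.09, with cn at 17.0, 18.0, 21.4 and 21.1 CPM in mutant libraries and 8.02, 9.28, 8.18 and 7.43 CPM in control libraries. The pteridine branch, which makes red pigment, did not follow. purple (pr) fell to 45.2 ± 6.66 CPM in mutant libraries, against 69.4 ± 2.66 CPM in control libraries (SD, n = 4 each, -0.62 ± 0.08), and Pu fell by 0.25. The partners of White in pigment transport, st and bw, were not called.

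Detoxification genes changed in both directions at once. Of 69 cytochrome P450 genes 23 rose and 21 fell, so 44 of them were called. Cyp28d2 had 5.97, 7.70, 7.37 and 5.91 CPM in mutant libraries and 269, 346, 242 and 296 CPM in control libraries (-5.32 ± 0.13, limma adjusted p = 9.00e-14). Cyp6a2, known in the fly for its role in insecticide metabolism, had 3.43, 3.53, 6.99 and 6.14 CPM in mutant libraries, against 139, 77.7, 76.8 and 78.2 CPM in control libraries (-4.09 ± 0.21). Cyp12d1-d, a mitochondrial P450, was listed at 0 in all 4 mutant libraries and at 3.74, 2.67, 2.69 and 3.97 CPM in control libraries, and its near-identical copy Cyp12d1-p was at 0.0860 CPM in mutant and 4.60 CPM in control libraries on average. Close relatives of the genes that fell went the other way: Cyp28d1 rose by 1.39 ± 0.12, beside the fall of Cyp28d2, and Cyp4p1 by 1.39 ± 0.23, beside Cyp4p2, which had 3.67, 1.48, 0.269 and 0.153 CPM in mutant and 63.2, 56.5, 54.6 and 54.0 CPM in control libraries. Cyp12a4 had 184, 160.3, 180.0 and 171 CPM in mutant libraries and 84.4, 84.7, 85.7 and 93.5 CPM in control libraries (0.99 ± 0.05). Of 35 glutathione transferase genes 13 rose and 11 fell, in part next to each other within 1 gene cluster of the epsilon class. GstE12 had 199.6, 189, 187 and 192 CPM in mutant libraries and 123, 124, 121 and 122 CPM in control libraries (0.64 ± 0.04), and GstE6 and GstE10 rose by 0.82 ± 0.07 and 0.83 ± 0.07. GstE5 had 4.28, 4.73, 4.79 and 4.17 CPM in mutant libraries, against 16.6, 13.9, 14.5 and 13.9 CPM in control libraries (-1.61 ± 0.08). UDP-glycosyltransferase genes rose in 10 and fell in 10 of 32. Ugt58Fa, now called Ugt317A1, rose by 1.25 ± 0.07, and Ugt86Dg fell by 1.44 ± 0.15. With the 3 libraries of high Tweedle score set aside, 8 rose and 7 fell.

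The proteasome, which degrades ubiquitin-tagged proteins, fell almost throughout. Of 33 tested subunit genes 29 were lower and none higher, with a median difference of -0.26 log2 units, and in 28 of the 33 the libraries of the genotypes did not overlap, where 37.3% of all genes have no overlap. Rpn11, the deubiquitinating subunit of the lid, had 99.6, 91.4, 86.7 and 88.9 CPM in mutant libraries and 131, 126, 123 and 125 CPM in control libraries (-0.46 ± 0.05, limma adjusted p = 2.17e-06). Rpt6, an ATPase of the base, had 128, 112, 108 and 104 CPM in mutant libraries, against 159, 152, 147 and 148 CPM in control libraries (-0.42 ± 0.06). The lid genes Rpn5 and Rpn8 fell by 0.41 ± 0.05 and 0.31 ± 0.04, the base gene Rpn2 by 0.29 ± 0.04 and the core gene Prosbeta5 by 0.28. Of the 4 genes not called, Rpt3R and Rpt4R, which stood near 1 CPM, are variant subunits. Without the 3 libraries of high Tweedle score 18 of the 33 genes were lower and none higher.

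Ribosome genes moved less. Of 89 cytosolic ribosomal protein genes 19 were lower and 1 higher (median -0.09), and single libraries set that count. It was 54 without mutant replicate 1 and 8 to 12 without mutant replicate 2, 3 or 4 or control replicate 1 or 4, and 3 once the 3 libraries of high Tweedle score were set aside. Mitochondrial ribosomal protein genes were higher in 5 and lower in 12 of 72, against 12 higher and 4 lower without those 3 libraries; leaving out single libraries gave 2 to 6 higher and 7 to 18 lower genes. Genes of ribosome biogenesis were mostly at their control level on low sugar, with 3 of 21 higher and 1 lower; 5 were lower without mutant replicate 1, 5 higher without mutant replicate 3, and none lower with the 3 libraries of high Tweedle score set aside. Myc, the growth regulator that activates them, had 164, 177, 169 and 184 CPM in mutant libraries and 113, 138, 117 and 135 CPM in control libraries (0.47 ± 0.07, limma adjusted p = 0.000122). Fib, the fibrillarin gene of rRNA methylation, had 361 ± 50.4 CPM in mutant and 365 ± 27.9 CPM in control libraries (SD, n = 4 each, -0.02 ± 0.09) and was not called.

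Cuticle genes rose broadly. Of 51 genes of the Cpr, Ccp84 and Edg families 33 were higher and 6 lower, with a median of 1.05 log2 units, and, with the 3 libraries of high Tweedle score left out, 29 were higher and 6 lower. Some of these genes varied less within a genotype than between the genotypes. Cpr67Fa2 had 333, 365, 388 and 405 CPM in mutant libraries and 116, 121, 131 and 132 CPM in control libraries (1.57 ± 0.09, limma adjusted p = 3.24e-09). Cpr60D had 194, 203, 198 and 211 CPM in mutant libraries, against 87.1, 63.4, 81.5 and 94.4 CPM in control libraries (1.32 ± 0.10), and Cpr49Ad rose by 1.16 ± 0.09. Their groups stood apart. The mutant values of Cpr67Fa2, though close, follow the order of the Tweedle score, whereas its control values run in the reverse order. Edg91 had 35.9, 37.1, 42.4 and 37.6 CPM in mutant libraries, against 4.52, 3.99, 5.30 and 11.1 CPM in control libraries (2.63 ± 0.29). Cpr67Fa1, a near copy of Cpr67Fa2, fell, to 39.7 ± 3.19 CPM in mutant libraries, against 133 ± 12.8 CPM in control libraries (SD, n = 4 each, -1.73 ± 0.10). Others followed the score. Ccp84Ag had 18.1, 20.6, 35.7 and 33.0 CPM in mutant libraries and 14.4, 1.38, 1.27 and 1.42 CPM in control libraries (3.07 ± 0.62), with mutant replicates 3 and 4 and control replicate 1 the highest of their groups. Cpr64Ad had 67.0, 73.6, 157 and 205 CPM in mutant libraries, against 65.8, 9.56, 7.99 and 9.43 CPM in control libraries (2.87 ± 0.57). Of 15 Tweedle genes 1 rose and 1 fell, and leaving out single libraries gave up to 3 rises and 2 falls, and leaving out the 3 of high score no rise and 2 falls. TwdlN was not called except without mutant replicate 1 (limma adjusted p = 0.0739 with all libraries), at 272, 392, 859 and 825 CPM in mutant and 319, 266, 238 and 235 CPM in control libraries. None of 6 Osiris genes, which are expressed in epidermis that makes cuticle, was called, and 3 were lower without mutant replicate 4 or the 3 libraries of high Tweedle score.

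Of 13 larval cuticle (Lcp) genes 9 rose and 2 fell. Lcp65Af had 1270.4, 1481, 1407 and 1568 CPM in mutant libraries and 842, 819, 749 and 823 CPM in control libraries (0.82 ± 0.09), and Lcp1 fell by 1.19 ± 0.15. Of 38 genes of chitin synthesis, binding and breakdown 22 were higher and 7 lower, and, with the 3 libraries of high Tweedle score left out, 14 were higher and 7 lower. Cht4, a chitinase gene, rose by 1.53 ± 0.24. Cht3, now called Cht10, which breaks down chitin at the moult, had 169, 172, 179.7 and 173 CPM in mutant libraries, against 388, 341, 442 and 369 CPM in control libraries (-1.14 ± 0.13, limma adjusted p = 6.15e-06), at 1 level in the mutant whatever the Tweedle score. The mucin gene Mur18B rose by 1.15 ± 0.13 and Mur89F fell by 2.17 ± 0.29.

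Genes of the moulting hormone ecdysone fell in 6 and rose in 1 of 19. ImpE3 had 0.543, 0.357, 0.556 and 0.670 CPM in mutant libraries and 7.68, 3.82, 6.27 and 3.97 CPM in control libraries (-2.48 ± 0.23, limma adjusted p = 6.16e-07). The nuclear receptor gene Hr4 had 2.89, 1.60, 2.62 and 9.93 CPM in mutant libraries, against 16.7, 10.5, 14.2 and 12.7 CPM in control libraries (-1.83 ± 0.36), so that mutant replicate 4 came close to the controls. Hr46, which encodes the receptor Hr3, fell by 1.17 ± 0.31, with overlapping groups. Hr38 was the 1 rise (1.52 ± 0.14). The receptor genes EcR and usp and the early genes br, Eip74EF and Eip75B were not called. Among hormone-making enzymes sad fell by 0.51 and sro by 0.49, the second call lost without control replicate 2 or mutant replicate 3 or 4, while phm and nvd were not called.

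**Figure D4:**
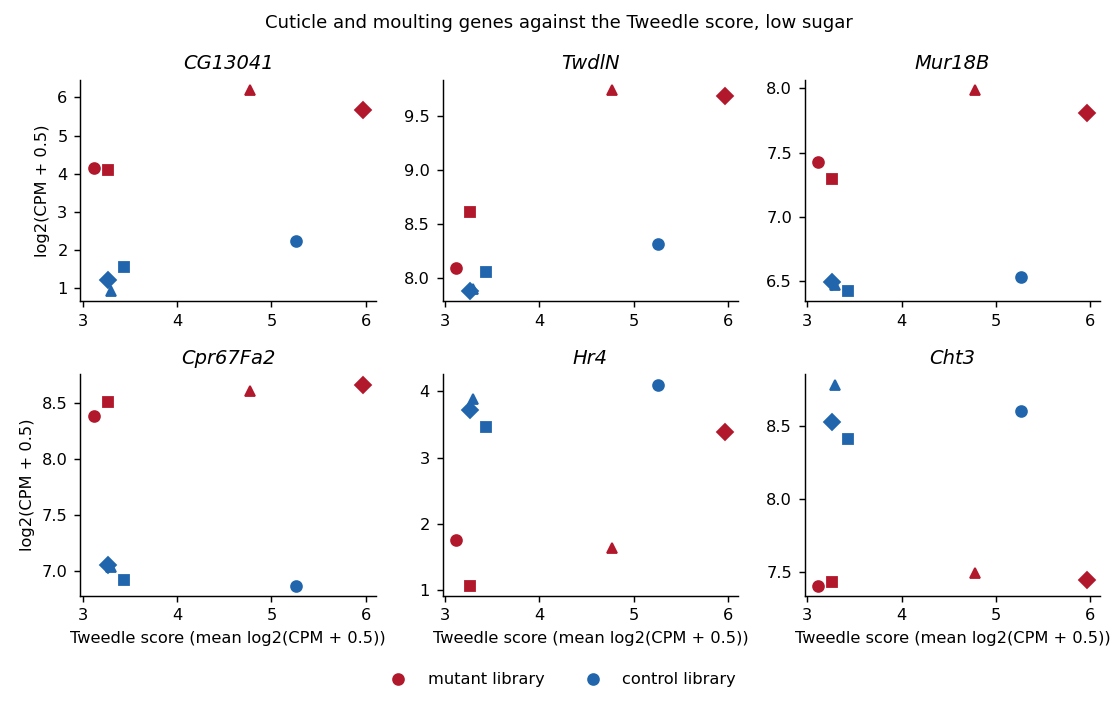
Levels of 6 genes as log2(CPM + 0.5) against the Tweedle score, the mean log2(CPM + 0.5) of 15 Tweedle genes, with 1 point per library and 1 symbol shape per replicate number. TwdlN, itself 1 of the 15 genes in the score, and CG13041 stand highest in mutant replicates 3 and 4, whose scores are 4.78 and 5.96. Control replicate 1, with a score of 5.26, lies below these libraries for both genes. Cpr67Fa2 and Cht3 vary less within each genotype than between the genotypes.

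Markers of other tissues gave smaller differences. Muscle markers fell in 8 of 14 and rose in 1, Act87E (0.53), whereas 10 fell and none rose without the 3 libraries of high Tweedle score. The summed level was 44006 to 54678 CPM in mutant libraries and 53904 to 57044 CPM in control libraries. Malpighian tubule markers rose in 6 and fell in 3 of 13 (1 fell without control replicate 4). Picot had 535, 536, 479 and 461 CPM in mutant libraries and 229.6, 179, 184 and 181 CPM in control libraries (1.38 ± 0.08, limma adjusted p = 1.30e-09), and the leucokinin receptor gene Lkr had 11.9, 11.9, 11.8 and 12.3 CPM in mutant libraries, against 4.90, 6.28, 6.18 and 5.83 CPM in control libraries (0.99 ± 0.08). Both pairs of groups stood apart. Neuron markers rose in 9 of 14 genes, 3 of them without the 3 libraries of high Tweedle score, and glia markers rose in 5 and fell in 2 of 9, against 2 and none without those libraries and 0 to 2 falls without single libraries. Of 9 haemocyte markers 4 fell, a share (44.4%) close to the 43.8% called among all genes. NimC1, a phagocytosis receptor gene, had 0.738, 0.939, 0.664 and 0.517 CPM in mutant libraries and 3.36, 3.65, 2.64 and 3.75 CPM in control libraries (-1.67 ± 0.12), and it was the 1 haemocyte marker still called without the 3 libraries. Gut peptide genes rose in 2 (NPF, 0.80, and CCHa1) and fell in 2 of 9 (1 to 2 without single libraries, 1 without the 3), with the same share called, 44.4%. Of the fat body, germline and male dosage markers none of 4, 8 and 3 was called. Lower were 2 of 7 tracheal (28.6% called) and 2 of 5 ring gland markers (40.0%), 1 to 2 of each without single libraries. Both shares are under the 43.8% of all genes. Without the 3 libraries, 1 ring gland marker was lower, and 1 tracheal marker was higher beside 2 lower ones.

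Defence and stress genes changed one by one. Drsl2, of the drosomycin family, had 0.0651, 0, 0 and 0.0191 CPM in mutant libraries and 8.72, 6.84, 14.3 and 10.8 CPM in control libraries (-4.31 ± 0.18, limma adjusted p = 5.74e-11). It was the 1 call among 6 antimicrobial peptide genes, of which 2 were lower with the 3 libraries of high Tweedle score set aside, and whose summed level ranged from 6.60 to 208 CPM in mutant and from 18.3 to 137 CPM in control libraries. Of 14 genes of the immune deficiency pathway 4 rose, led by PGRP-SC2, an amidase that cuts bacterial peptidoglycan, with 23.6, 23.3, 27.0 and 26.3 CPM in mutant libraries, against 7.48, 8.11, 6.14 and 12.7 CPM in control libraries (1.53 ± 0.17), and 2 fell (1 to 3 without single libraries). Hsp70Bb, a copy of the inducible Hsp70 gene with near-identical copies elsewhere in the genome, had 3.60, 6.59, 7.17 and 7.33 CPM in mutant libraries and 0.844, 0.0863, 0.168 and 0.0552 CPM in control libraries (3.14 ± 0.25). Of 15 heat shock genes 4 rose, among them Hsp83 (0.47), and 2 fell, Hsc70-3 (-0.40) and Hsc70-4 (-0.20), of which neither was called without the 3 libraries of high Tweedle score. Metallothionein MtnC rose by 1.50 ± 0.16, and of the list of 6, with the regulator MTF-1, 2 rose and 2 fell; the falls were not called without the same 3 libraries.

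The same genotypes on high sugar, in 8 separate libraries, gave 3934 called genes (40.0%). Of the low-sugar calls 2269 were called in the same direction there, 52.6% of the calls on low sugar and 57.7% of those on high sugar, and 131 in the opposite direction (3.04% and 3.33%). Of the 557 genes with at least 2-fold differences, 446 were called in the same direction on high sugar, 108 were not called and 3 were opposite. The difference between the genotype effects on the 2 diets, tested as an interaction in the same limma fit, was called in 1659 genes (16.9%), 880 with the larger value on low sugar (8.95%) and 779 with the smaller (7.92%), and in 187 of the 557. Leaving out the library of highest Tweedle score in each group lowered the interaction calls to 790.

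CG14422 had the largest interaction of the 9837 genes. Its log2 difference was -7.38 on low sugar and -0.06 on high sugar, where it averaged 0.194 CPM in mutant and 0.212 CPM in control libraries (interaction -7.32 ± 0.69, limma adjusted p = 1.08e-05). Digestive sugar enzymes differed by diet in 11 of 14 genes: 7 rose and 1 fell on low sugar, against 4 and 6 on high sugar. Mal-A1 was higher by 1.43 on low sugar and not called on high sugar, at 750.1 CPM in mutant and 825 CPM in control libraries (-0.14, interaction 1.57 ± 0.17, limma adjusted p = 3.81e-05). Hex-A (0.72 on low, -0.08 on high sugar), CAH2 (1.59 and 0.09), Gnmt (1.42 and 0.08), hgo (1.02 and -0.14) and Cyp12a4 (0.99 and -0.0027) likewise had interactions that were called. For Gpo-1 the difference was 1.71 on low and 0.74 on high sugar, called on both, with an interaction of 0.97 ± 0.07 (limma adjusted p = 1.44e-06). MtnC changed sign, with 1.50 on low and -0.54 on high sugar (interaction 2.04 ± 0.23, limma adjusted p = 5.79e-05). FASN1 (0.67 and -0.01) and AcCoAS (0.71 and -0.25) were called higher on low sugar alone, with interactions of 0.68 ± 0.19 and 0.96 ± 0.17 that were called.

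Ribosome biogenesis genes parted by diet: 3 of 21 were higher on low sugar and 19 on high sugar, with medians of -0.02 and 0.58 log2 units and interactions called in 19. Nop56, of the box C/D small nucleolar particles, had a difference of -0.13 ± 0.09 on low and 0.65 ± 0.09 on high sugar (interaction -0.77 ± 0.12, limma adjusted p = 0.000958), and without mutant replicate 1 it was called lower on low sugar. Of 69 cytochrome P450 genes 35 were lower on high sugar and 21 on low sugar, with interactions called in 24, and of 35 glutathione transferase genes 22 and 11, with interactions called in 15. The alkaline phosphatases had 10 higher genes and 1 lower gene on each diet, with interactions called in 4, and the proteasome had 29 lower genes on low and 23 on high sugar and 1 interaction. CG3292 (1.04 on low, 2.75 on high sugar) and Alp2 (2.74 and 4.01) had the larger difference on high sugar (interactions -1.71 ± 0.15 and -1.28 ± 0.19, both called). The falls of LysD (-7.20 and -6.57), ng3 (-5.61 and -6.28) and CG10514 (-7.99 and -5.65) were called on both diets.

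**Figure D5:**
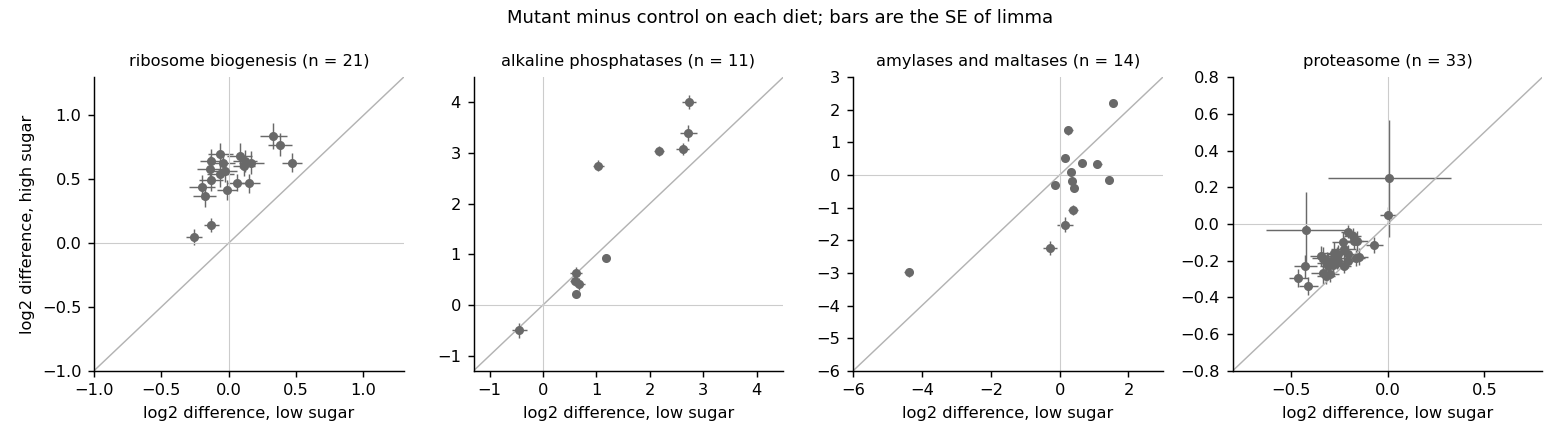
Log2 difference of mutant minus control on low sugar (horizontal) and on high sugar (vertical) for the tested genes of 4 lists, with the SE of limma as bars and the line of equal differences in grey. Ribosome biogenesis genes lie above the line, with medians of -0.02 on low and 0.58 on high sugar, whereas the 11 alkaline phosphatases have the same sign on both diets.

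The genes beside cwo on arm 3R share its chromosome region, and with it any linked difference between the stocks. Within 100 kb of cwo 9 of 14 tested genes were called (64.3%), within 500 kb 55 of 92 (59.8%) and within 1000 kb 124 of 218 (56.9%), against 43.8% of all genes and 40.2% to 45.2% on the single chromosome arms. At 2-fold or more the shares were 7.14%, 6.52% and 4.13%, beside 5.66% of all genes. These shares are a description, and the parts of the allele and of linked background in them cannot be told apart.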

How the data were processed

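Whole-larva RNA was sequenced, and the deposited table gives 1 value per gene for each of the 16 libraries, named CPM in its header. Per the submitters' processing notes the authors used Trimmomatic, TopHat2 2.1.0, HTSeq and limma. Their genome build and annotation were not given in the sources used. The deposited values are treated as a normalized signal, because 9 of the 16 columns sum to more than 1000000, and values are compared as the authors scaled them except where another scaling is named. Values are whole multiples of a smallest step per library (all of them, with offsets of at most 7.45e-09 reads), from which 44.9 to 54.2 M reads (M for 1000000) per low-sugar library were computed; that number limits the precision of low values. The sample records state a depth of 30 M reads for every library, below the computed numbers, and the reason was not tested. The computed reads served the check for duplicates and, as an alternative, a limma voom fit with the deposited scaling. The authors' own coefficient and p columns were not used.

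Genes of at least 1 CPM in at least 4 of the 16 libraries were tested (9837 of 9863). log2(CPM + 0.5) was fitted with limma 3.58.1 (R 4.3.3) with a mean per group and a trended prior, with Benjamini-Hochberg adjustment of p over all genes tested. Groups and replicate numbers come from the sample titles. The numbers were not treated as pairs. Between the low-sugar groups the correlation of their deviations from the group means was -0.201, 0.437, 0.125 and -0.34 for replicates 1 to 4, too few and too mixed to settle whether they are pairs. No pair of replicates was a duplicate (chi-square per degree of freedom 13.9 to 127). The scripts were tested on simulated data, and Python 3.11.15 made the tables. Alternatives were other scalings, filters and added constants, covariates, a replicate block and left-out libraries. The 2 sets of libraries left out by their Tweedle score and the voom fit were chosen after seeing the data.

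The comparison, the 44 gene lists and the 14 marker lists were chosen with earlier results of these data known, so their counts are descriptions. Named genes were taken from cwo, tim, vri, Pdp1, cyc, w, sug, cbt, Mondo, roX1 and roX2, the 15 largest rises and 15 largest falls (at least 5 CPM in the higher group, no overlap), and, in each list, up to 4 genes of smallest adjusted p or every member of families of up to 8. Some genes that this rule chose are not named in the text. A further 57 of the 198 genes named, added to complete a list, a neighbourhood or a contrast, were chosen after their values were seen. Clk and cry have no row in the table used here, and one other clock gene is not analysed here. Gene names, synonyms and neighbours follow BDGP6 (Ensembl 115), which holds 9702 of the tested genes; sequences are not analysed here.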

Additional observations from a re-analysis of the deposited data

Results flagged for a closer look

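Among 398 groups of 4 libraries, 31 had 1 library set apart from the other 3 by most of the range of the group; chance gives about 1 in 20 groups. Mutant replicate 1 stood above the other 3 for FucTC (36.6 CPM), Treh (217 CPM) and below the other 3 for Lcp1 (1.61 CPM), SCAP (28.4 CPM), cwo (139 CPM). Mutant replicate 2 stood above the other 3 for AcCoAS (499 CPM), Lsd-2 (106 CPM). Mutant replicate 3 stood above the other 3 for Gnmt (341 CPM), ng2 (0.395 CPM). Mutant replicate 4 stood above the other 3 for Alp2 (14.3 CPM), Hr4 (9.93 CPM), Hr46 (7.08 CPM) and below the other 3 for CG13658 (0.440 CPM), CG31097 (0.325 CPM), thetaTry (50.1 CPM). Control replicate 1 stood above the other 3 for CG32074 (2.93 CPM), Ccp84Ag (14.4 CPM), Cpr64Ad (65.8 CPM), Cyp6a2 (139 CPM), Hsp70Bb (0.844 CPM), Picot (229.6 CPM), phu (30.0 CPM). Its Tweedle score of 5.26 stood above those of the other control libraries as well. Control replicate 2 stood above the other 3 for CG3011 (376 CPM) and below the other 3 for Cpr49Ad (44.8 CPM), Jon65Ai (37.3 CPM). Control replicate 3 stood below the other 3 for Acox57D-d (81.3 CPM). Control replicate 4 stood above the other 3 for Cyp12a4 (93.5 CPM) and below the other 3 for Rpn8 (118 CPM), SdhC (153 CPM), roX2 (3.07 CPM).

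The genotype difference itself differed between low and high sugar, by the interaction in the limma fit, for 80 of the 198 genes named. The values in brackets are the log2 difference on low sugar minus that on high sugar. For genes near 0 CPM in the mutant on both diets, the value rests on the control levels and on the added 0.5. CG10514 averaged 0.0297 CPM on low and 0.114 CPM on high sugar in mutant libraries. Its control libraries averaged 135 CPM on low and 30.8 CPM on high sugar. Genes called higher in the mutant on both diets were CG10474 (-1.83), CG8745 (1.81), CG3292 (-1.71), CG11425 (1.67), Alp2 (-1.28), Hsp70Bb (-1.21), CG31089 (1.16), CG6283 (-1.11), epsilonTry (1.05), Gpo-1 (0.97), alphaTry (0.94), CG3264 (-0.87), Cyp28d1 (0.73), Jon65Ai (-0.72), Amy-d (-0.65), Jon44E (0.60), FucTC (0.56), Picot (0.55), Lkr (0.50), NaPi-III (0.49), Cpr60D (0.46), P5CDh1 (0.45), fbp (0.44), GstE12 (0.36), Gdh (0.29), Pdp1 (0.24). Genes called lower in the mutant on both diets were CG10514 (-2.35), CG15741 (-1.83), ImpE3 (-1.81), tobi (-1.40), CG34278 (-1.15), ng2 (1.09), CG11892 (-1.03), ng1 (1.02), Lcp1 (0.99), LysE (-0.95), Cyp28d2 (-0.86), Cpr67Fa1 (0.78), LysD (-0.62), Cht3 (-0.60), Gpdh (0.47), CG13658 (0.46), sad (0.45), GstE5 (0.42), Pu (0.21). The genes called higher on low sugar and not called on high sugar were CG5892 (2.82), Mal-A1 (1.57), CAH2 (1.50), Gnmt (1.34), hgo (1.15), Mur18B (1.08), CG3588 (1.03), thetaTry (1.001), Cyp12a4 (0.996), AcCoAS (0.96), Hex-A (0.81), FASN1 (0.68), GstE6 (0.67), Lcp65Af (0.60), Vha100-4 (0.48), Myo31DF (0.34), PCB (0.34), MTF-1 (0.28). The genes called lower on low sugar and not called on high sugar were CG14422 (-7.32), CG14424 (-3.94), CG32793 (-3.35), CG3598 (-2.82), CG14420 (-2.59), Mur89F (-1.68), CG3999 (-0.70), pr (-0.54), CrebA (-0.39), Lsd-2 (-0.38), Gs2 (-0.33). Called on high sugar and not on low sugar were Nop56 (-0.77), Fib (-0.59), Amy-p (-0.37). Called in opposite directions on the 2 diets were MtnC (2.04), Hsc70-3 (-0.73), Hsc70-4 (-0.39).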

How the results depend on the processing

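The count of 4313 genes called on low sugar was 3807 to 4850 when 1 library was left out (2007 to 2533 higher, 1795 to 2317 lower), and the 557 genes at 2-fold or more were 532 to 607. With the 8 libraries alone 3607 genes were called, and 3373 once the 3 libraries of high Tweedle score were set aside (1799 higher, 1574 lower). The replicate block gave 4629 calls. Whether the replicate numbers pair the libraries is not settled: on low sugar 2 of 4 numbers correlated best with their own. The added constant moved the genes at 2-fold or more to 626 (0.1) and 489 (1). The interaction calls, 1659 with all libraries and 1207 to 2451 without single ones, were 790 without the library of highest Tweedle score in each group; the cause was not tested. Quantile normalization left the total at 4421 and turned the split to 1911 higher and 2510 lower. The voom fit of the recovered reads called 4331 genes (2263 higher, 2068 lower), 643 of them at 2-fold or more. Of the 324 genes followed, 29 lost and 8 gained their call without the 3 libraries of high Tweedle score, and 1 turned direction: MtnA, not called with all libraries (-0.02), was 0.28 and called higher, against 12 lost with the 8 libraries alone and none with either added constant or voom. Values near 0 CPM rest on few reads.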
